A study of Ovis aries with 26 samples.

Results

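B cells in the sheep pancreas were taken as kept barcodes with at least 1 UMI of CD79B, the signalling chain of the B cell antigen receptor, and no UMI of CD3E, C1QA, C1QB, C1QC or PECAM1, genes of T cells, macrophages and endothelium. A kept barcode had over 200 and under 6000 genes detected and under 25% of its UMIs from mitochondrial genes. There were 519 such B cells among 79510 kept barcodes, or 0.653%, out of 109501 barcodes in the deposited matrices. The measurement was 10x Genomics single-cell RNA sequencing, in which a UMI is a molecular tag that counts 1 captured transcript.

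The study set pancreas of sheep lacking the chloride channel CFTR, the gene mutated in cystic fibrosis, beside pancreas of sheep with a working copy, at 80 and 120 days of gestation and at term. The 26 libraries came from 23 animals in 6 groups. At 80 days the non-CF group held 4 male fetuses, of which replicates 1 and 3 were WT and replicates 2 and 4 carried 1 disrupted CFTR allele (HZ), and replicates 2, 3 and 4 were littermates, while the 3 CFTR-/- fetuses were cloned males made by nuclear transfer from a single edited cell line. At 120 days there were 3 WT fetuses, of which replicate 2 was female and replicates 1 and 3 male. The 6 CFTR-/- fetuses at that age were cloned males (replicates 1 to 4) and naturally bred female twins (replicates 5 and 6). At term there were 4 WT animals, of which replicate 3 was female and the others male. Of the 3 CFTR-/- animals at term, replicates 1 and 2 were naturally bred females and replicate 3 a cloned male. The tissue was pieces of pancreas digested to single cells, with lysis of red blood cells and no sort by marker. Cloned animals share a genome, and cloning cannot be told apart from CFTR genotype at 80 days. Where an animal had libraries A and B, their shares were averaged, their counts were summed, and the animal was counted once.

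B cells develop from lymphoid progenitors in the fetal liver and bone marrow. Precursors rearrange their immunoglobulin genes with the RAG recombinase, divide under the control of MYB, SOX4, LEF1 and the interleukin 7 receptor, and then display IgM with its CD79A and CD79B signalling chains. Naive B cells that leave these sites carry CCR7, CXCR5 and the BAFF receptor TNFRSF13C, and activated cells may become antibody-secreting plasma cells, which depend on PRDM1 and XBP1 and make JCHAIN. Sheep are known for heavy use of gut follicles in expanding their B cells before birth.

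The B cells had a median of 5187 UMIs and 1734 genes, and library totals ranged from 7841217 to 171256169 UMIs. Across the libraries 824 barcode sequences occurred more than once, and 14 of the B cells had such a barcode, but no 2 B cells shared one. At the edge of the rule, 103 B cells had a single CD79B UMI and 416 had 2 or more, with a median of 5 and a maximum of 28. Of the 103, CD79A was found in 42.7% and FCMR in 33.0%, against 92.1% and 77.9% of the 416. The rule left out 118 barcodes that held CD79B together with an excluding gene, most often PECAM1 (81) or CD3E (33), and 80.5% of these also held CD79A. A further 182 barcodes held PTPRC, the pan-leukocyte CD45, and at least 3 other B cell genes but no CD79B, and 73.1% of them held CD79A and 7.69% held MS4A1. The cells were thus chosen by measured counts of CD79B and the excluding genes, and those counts are given as a description with no test.

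The label held for most members. The heavy chain of IgM, listed in the files under LOC105603287, was found in 90.4% of the B cells and 2.32% of all other kept barcodes. CD79A was found in 82.3% against 1.45%, the Fc receptor for IgM, FCMR, in 69.0% against 0.742%, and the B cell kinase BTK in 51.6% against 1.38%. The surface protein MS4A1, which is CD20, was found in 48.7% against 1.36%, and PAX5, the transcription factor that holds B cell identity, in 38.9% against 0.0924%. At least 1 of 21 other B identity genes was found in 488 of the 519 cells, and at least 3 were found in 463. The other barcodes include the CD79B barcodes left out by the rule and cell types that use some of these genes, so their percentages are not a background level.

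**Figure D1:**
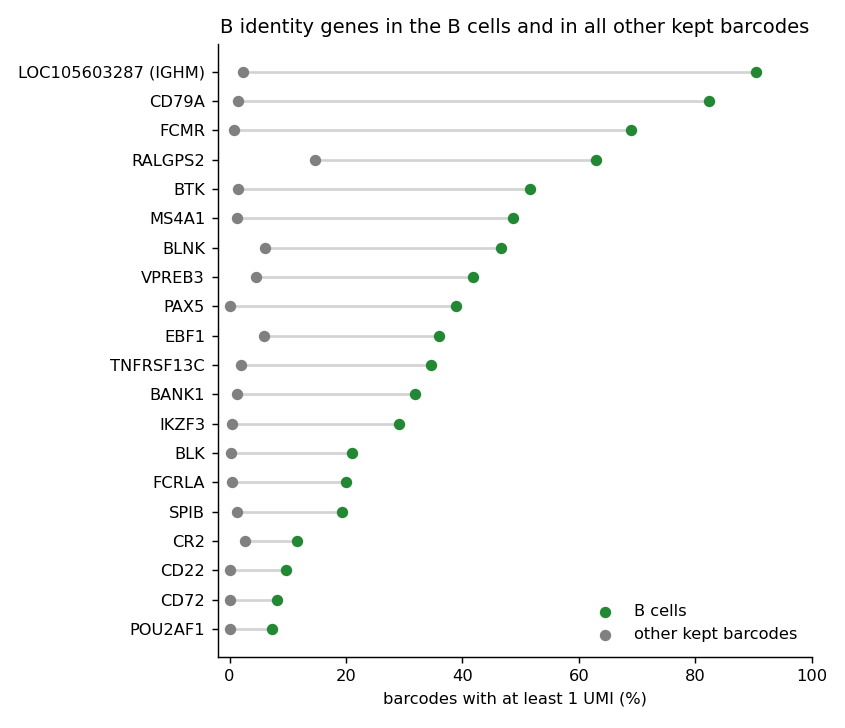
Percent of barcodes with at least 1 UMI of each of 20 B cell genes, in the 519 B cells and in all other kept barcodes. The IgM heavy chain stood at 90.4% against 2.32% and PAX5 at 38.9% against 0.0924%.

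Genes of T cells and macrophages were low in the B cells. Of 14 further T cell genes, CD4, CD8A, ICOS and THEMIS had no UMI in any B cell, and 1.35% of B cells held 2 or more genes of that list. Of 10 further macrophage genes CSF1R, MARCO and MSR1 were at 0, and 4.43% of B cells held 2 or more. Over the fitted animals the summed level was 9.29 to 52.5 CPM (UMIs of a gene per 1000000 UMIs of the B cells) for the T cell list and 37.1 to 75.6 CPM for the macrophage list. Of 13 dendritic cell genes, a list that holds genes also used by B cells such as CCR7 and IRF8, XCR1 and CLEC9A were at 0, but 56.1% of B cells held 2 or more, at 561 to 1027 CPM, and LAMP3 was found in 30.8% against 0.990% of other barcodes. In addition, 32.9% of B cells held 2 or more of 12 endocrine genes and 15.4% held 2 or more of 9 stromal genes. In contrast to the T cell list, 80.0% of B cells held 2 or more of 16 acinar genes, which encode the digestive enzymes, at 4365 to 37293 CPM in sum. The 56 cells with fewer than 3 other B identity genes were larger, with a median of 10712.5 UMIs against 5123, and held PTPRC in 5.36% of cases against 63.7%. These 56 carried 68.8% of all acinar UMIs found in the B cells. Shares, calls and the main gene lists are also given without them, in an alternative chosen after seeing the data, and doublets were not called. This limit uses the B identity genes themselves, so it is no check of lists that hold them.

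CD79B was also found at a low rate in cell types that should lack it. Among barcodes without PTPRC it occurred in 25 of 17726 stromal barcodes, or 0.141% (95% exact binomial interval 0.0913 to 0.208, median 7660 UMIs), in 7 of 4410 endothelial barcodes, or 0.159% (0.0638 to 0.327, median 5996 UMIs), and in 1 of 6972 acinar barcodes, or 0.0143% (0.000363 to 0.0799, median 25969.5 UMIs). These intervals cover counting error only. The rates count any barcode of the class with CD79B and do not apply the excluding genes, so they are not on the same rule as the B cell shares. The rates differed between groups. In stromal barcodes they were 0.234% and 0.353% in non-CF and CFTR-/- animals at 80 days, 0.144% and 0.0788% at 120 days and 0% in both at term, and in endothelial barcodes 1.07% in non-CF animals at 80 days, from 3 of 280 barcodes. CFTR-/- replicate 3 at 80 days, with a B cell share of 0.377%, lay close to the stromal rate of its own group. However, 10 of its 12 B cells held at least 3 other B identity genes.

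The first question was how abundant B cells were at each age. They were common at 80 days and rare at term, with 355 of the 519 cells at 80 days, 134 at 120 days and 30 at term. As a share of kept barcodes they made up 2.27% ± 1.55 (SD, n = 7 animals) at 80 days, 0.440% ± 0.564 (n = 9) at 120 days and 0.0837% ± 0.0917 (n = 7) at term. The mean at term was 27.1-fold lower than at 80 days.

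The values by animal show how far the ages overlapped. The 4 non-CF fetuses at 80 days held 1.05%, 0.716%, 4.42% and 2.80% B cells, and the 3 CFTR-/- fetuses 2.97%, 3.53% and 0.377%. At 120 days the non-CF fetuses held 0.0764%, 1.49% and 0.585%. The CFTR-/- fetuses at that age held 0.328%, 0.198%, 0%, 0%, 1.26% and 0.0279%, so 3 of the 9 animals at 120 days reached into the range of the youngest group. A count of 0 of 943 barcodes in CFTR-/- replicate 3 allows a share of up to 0.318%, and 0 of 2640 in replicate 4 a share of up to 0.114%. At term the non-CF animals held 0%, 0.136%, 0.246% and 0.133%, and the CFTR-/- animals 0.0419%, 0.0282% and 0%. The zeros at term allow up to 0.277% of 1082 barcodes and 0.0728% of 4120. Every animal at 80 days lay above every animal at term.

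**Figure D2:**
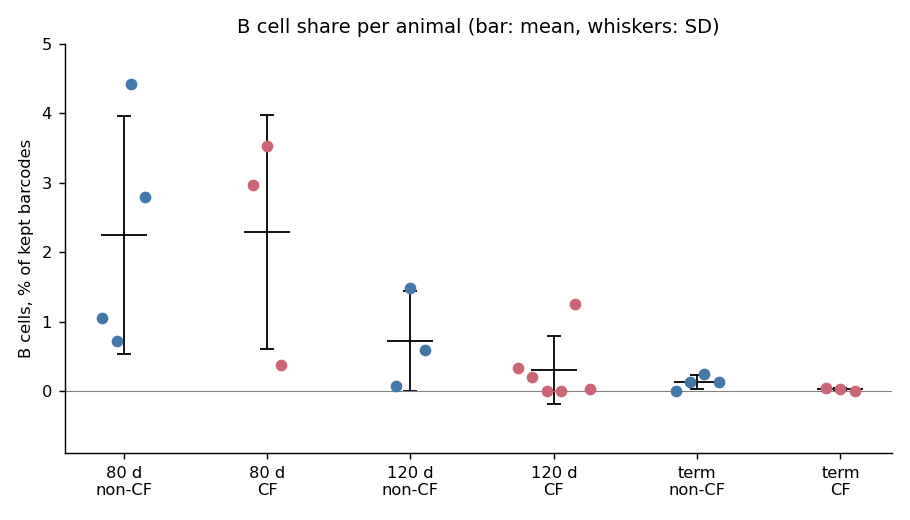
B cells as a percent of kept barcodes in each animal (points), by age and genotype, with bars for group means and whiskers for the SD. The 7 animals at 80 days lie between 0.377 and 4.42% and the 7 at term at or below 0.246%.

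Shares were compared by an exact two-sided permutation test that relabelled animals within genotype for ages and within age for genotypes. Genotype differences at a single age are log2 ratios of the mean shares, with nothing added. Differences between ages, and between genotypes over all ages, are on a log2 scale after adding 0.1 percentage points. From 80 days to term the share fell by 3.50 on that scale, with an exact p = 0.00143, the smallest the relabelling allows, and adjusted p = 0.01 over 7 comparisons, this one having been added after seeing the data. From 80 to 120 days the difference was -2.26, with an exact p = 0.0109 and adjusted p = 0.0653 over the 6 planned comparisons, so it missed the threshold. It passed when CFTR-/- replicate 3 at 80 days (-2.73), non-CF replicate 2 at 120 days (-2.63), CFTR-/- replicate 5 at 120 days (-2.51) or non-CF replicate 2 at 80 days (-2.46) was left out. From 120 days to term the difference was -1.24, with adjusted p = 0.184. Within the non-CF animals alone, the exact permutation test of term against 80 days gave p = 0.0286, the smallest possible there, with means of 0.129% and 2.25%. Within CFTR-/- animals the same comparison could not go below 0.1 and gave an exact p = 0.1, with means of 0.0234% and 2.29%.

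Cell size and the other cells of the tissue moved the levels but not the order of the ages. After every barcode was thinned to 1500 UMIs the group means were 2.00% and 1.64% at 80 days in non-CF and CFTR-/- animals, 0.558% and 0.265% at 120 days, and 0.0942% and 0% at term. Of barcodes with a UMI of PTPRC, the B cells took 7.50% and 10.6% at 80 days, 4.76% and 3.09% at 120 days, and 1.16% and 0% at term. With the cells held to at least 3 other B identity genes, 326 remained at 80 days, 120 at 120 days and 17 at term, and from 80 days to term the share fell by 3.64 with adjusted p = 0.01 by the exact permutation test.

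B cells were also scarcer relative to T cells at both later ages, and relative to macrophages at term. T cells, counted by CD3E, averaged 2.18%, 1.17% and 1.04% of barcodes at the 3 ages, and macrophages, counted by the C1Q genes, 3.09%, 0.996% and 1.89%. On the log2 scale the ratio of B to T cells differed by -1.30 between 120 and 80 days (adjusted p = 0.0337, exact permutation over 6 ratio tests), and by -1.73 between term and 80 days (adjusted p = 0.0337), while term and 120 days differed by -0.43 (adjusted p = 0.502). The ratio of B cells to macrophages differed by -0.46 between 120 and 80 days (adjusted p = 0.502), by -1.81 between term and 120 days (adjusted p = 0.0337), and by -2.28 between term and 80 days (adjusted p = 0.0337). These ratios were chosen after seeing the data.

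The 30 B cells at term were not alike. In non-CF replicate 3 all 8 had at least 3 other B identity genes and IgM heavy chain, and in non-CF replicate 2 this held for 9 of 13 and 8 of 13 cells. In non-CF replicate 4 and in the CFTR-/- animals none of the 4 and 5 cells had 3 such genes, PTPRC, the IgM heavy chain or FCMR. Those cells were very large, with a median of 51179 UMIs in non-CF replicate 4 and 36411.5 in CFTR-/- replicate 1, and their median acinar share was 18.6% and 13.1% of UMIs. The CD79B rates given above for all groups did not apply the excluding genes, of which PECAM1 is an endothelial gene. Set against those rates, every animal at term except non-CF replicate 3 (0.246%) lay below the stromal and endothelial values of 0.141% and 0.159%. The same held for 4 of the 9 animals at 120 days. However, 5 of the 7 animals at term lay above the acinar rate of 0.0143%. In barcodes at term alone, CD79B was found in 0 of 2191 stromal, 0 of 718 endothelial and 1 of 4611 acinar barcodes of non-CF animals, and in 0 of 3812 stromal, 2 of 1589 endothelial (0.126%) and 0 of 2304 acinar barcodes of CFTR-/- animals. The share alone thus does not settle whether B cells were present in a given animal at term, and the other B cell genes given above were found in cells of non-CF replicates 2 and 3.

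The second question was whether genotype altered B cell abundance. No comparison passed. At 80 days the CFTR-/- mean was 2.29% ± 1.68 (n = 3) against 2.25% ± 1.71 (n = 4), a log2 difference of 0.03 with p = 1 by the exact permutation test. At 120 days it was 0.302% ± 0.485 (n = 6) against 0.717% ± 0.716 (n = 3), a difference of -1.25 with an exact permutation p = 0.262 and adjusted p = 0.314. Without the naturally bred twins, CFTR-/- replicates 5 and 6, that difference was -2.45 with an exact p = 0.171, and without non-CF replicate 2 it was -0.13 with an exact p = 0.714. Leaving out any single animal gave -2.69 to -0.13. At term it was 0.0234% ± 0.0214 (n = 3) against 0.129% ± 0.101 (n = 4), a difference of -2.46 with adjusted p = 0.314 by the exact permutation test. Over all ages the difference, here on the scale with 0.1 percentage points added, was -0.70 with adjusted p = 0.314 by the exact permutation test. The designs at 80 days and at term could not go below an exact p = 0.0571.

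Gene levels within B cells were compared over animals, by summing the UMIs of all B cells of an animal. The 9 animals with at least 20 B cells entered, namely non-CF replicates 1, 3 and 4 and CFTR-/- replicates 1 and 2 at 80 days, and non-CF replicates 2 and 3 and CFTR-/- replicates 1 and 5 at 120 days. No animal at term had enough cells. All animals fitted at 80 days were male, while non-CF replicate 2 and CFTR-/- replicate 5 at 120 days were female, so sex and age were partly confounded. Each animal contributed 24 to 94 cells. Levels are given as CPM over the UMIs of the animal's B cells, and compare a gene across animals. Differences are log2 fold changes ± SE from edgeR's quasi-likelihood test, with p-values adjusted over 4301 genes. CFTR itself was scarce in these cells, at 0, 13.2 and 2.47 CPM in non-CF and 69.2 and 23.1 CPM in CFTR-/- animals at 80 days. At 120 days it stood at 40.9 and 0 CPM in non-CF and 0 and 3.81 CPM in CFTR-/- animals, and since 3′ tags lie away from the edited site these counts do not check the genotype.

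Between 120 and 80 days 1 of 4301 genes passed (0.0233%), and 473 (11.0%) had an unadjusted p under 0.05, of which 267 (6.21% of all genes) were higher at 120 days and 206 (4.79%) lower. DESeq2 called 43. The gene that passed, LOC101111795, is listed by number only and was abundant in other cells, at a mean of 469 CPM against 76.7 CPM in B cells. It rose by 4.96 ± 0.57 (adjusted p = 0.00583), from 0, 5.65, 27.2, 0 and 5.12 CPM at 80 days to 336, 172, 56.7 and 87.7 CPM at 120 days. Of its 74 UMIs in non-CF replicate 2 at 120 days a single barcode held 69. In the other barcodes of the same animals the gene stood at 36.5, 147, 93.1, 12 and 26.7 CPM at 80 days. There it was also higher at 120 days, at 612, 173, 279 and 2845 CPM, so the rise was not particular to B cells. The scaling matters for this comparison. With the fitted (TMM) scaling the median gene did not shift (0.00), whereas on plain library totals it shifted by -0.47 and 85.4% of genes were lower at 120 days, so directions below are relative to the median gene. On library totals 61 genes were higher and 944 lower at unadjusted p under 0.05, and list medians on that scaling are read against -0.47.

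Within that limit, genes of B cell precursors and of cell division stood lower at 120 days, although no single member passed. MYB, which drives the growth of lymphoid progenitors, was at 647, 486, 480, 260 and 442 CPM at 80 days and at 182, 149, 56.7 and 130 CPM at 120 days. Among the animals fitted the ages did not overlap, but the 12 B cells of CFTR-/- replicate 3 at 80 days, which was not fitted, held 4 MYB UMIs, or 33.5 CPM, below every animal at 120 days. The difference was -1.32 ± 0.26 with adjusted p = 0.123 by edgeR. LEF1, a transcription factor that supports pro-B cell survival, was at 139, 90.4, 106, 59.1 and 129 CPM at 80 days and at 27.3, 32.5, 31.5 and 15.3 CPM at 120 days. It too did not overlap between ages among the animals fitted, with a difference of -1.51 ± 0.35 and adjusted p = 0.148. The cytokine receptor FLT3 of early progenitors (-1.49, adjusted p = 0.303) and the surface protein CD99 (-0.65, adjusted p = 0.326) differed in the same direction.

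Over all genes 50.1% of differences were above 0 and 49.9% below. Of 10 pro-B and pre-B genes tested, 4 had an unadjusted p under 0.05 and a lower level at 120 days and none a higher level, and 9 of 10 had negative differences. Their median difference was -0.74, beside 0.00 over all genes, or -0.64 among cells with at least 3 other B identity genes, and the summed level ran from 2382 to 4530 CPM at 80 days and from 1186 to 2731 CPM at 120 days. The recombinase gene RAG1 was sparse, at 30.8, 18.8, 12.4, 8.66 and 11.5 CPM at 80 days and 18.2, 23.2, 0 and 3.81 CPM at 120 days, and its ages overlapped. A light chain constant gene, LOC101114469, named IGLC3 in the study's marker tables, was at 2812, 2666, 2061, 1370 and 1719 CPM at 80 days. At 120 days it was at 1009, 854, 353 and 926 CPM, below every animal at 80 days, with a difference of -0.90 ± 0.29 and adjusted p = 0.276.

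Cell division genes leaned to 1 side. Of 29 tested, 12 had an unadjusted p under 0.05 with a lower level at 120 days and none with a higher level, 28 of 29 differences were negative, and the median was -0.84. On library totals the counts were 22 lower and 0 higher, with a median of -1.30, beside 944 of 4301 genes lower on that scaling. Among cells with at least 3 other B identity genes they were 9 and 0, with a median of -0.68. In sum these genes made up 3404 to 7377 CPM at 80 days and 1966 to 3099 CPM at 120 days. TYMS, which makes thymidylate for DNA synthesis, was at 80.9, 104, 81.6, 66.4 and 110 CPM and then at 18.2, 27.9, 6.30 and 34.3 CPM, a difference of -1.49 ± 0.35 with adjusted p = 0.148. The replication helicase subunit MCM6 (-1.46, adjusted p = 0.202) and the kinetochore motor CENPE (-1.45, adjusted p = 0.203) were similar. The topoisomerase TOP2A overlapped between the ages and differed by -0.46 (adjusted p = 0.682).

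**Figure D3:**
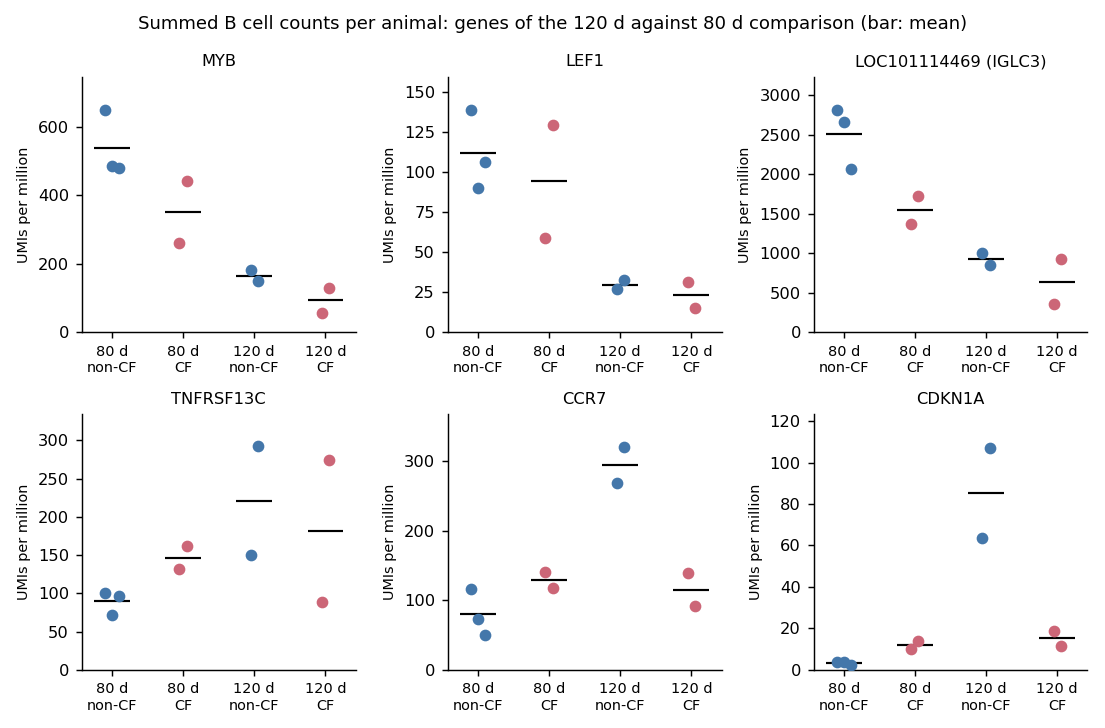
Level in CPM (UMIs per 1000000) of 6 genes in the B cells, summed for each of the 9 animals fitted (points), by age and genotype (CF is CFTR-/-), with bars for group means. MYB lay between 260 and 647 CPM at 80 days and between 56.7 and 182 CPM at 120 days.

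Relative to the median gene, genes of mature and recirculating B cells tended the other way. In sum, however, the mature B genes ran from 3840 to 4899 CPM at 80 days and from 2080 to 4415 CPM at 120 days. Of 20 mature B genes 7 had an unadjusted p under 0.05 with a higher level at 120 days and 1 with a lower level, with a median of 0.24, and on library totals the counts were 2 and 3 and the median was -0.21, which again lies above the median gene of that scaling. In cells with at least 3 other B identity genes they were 7 and 0 with a median of 0.32, although MS4A1, FCMR and other mature B genes belong to that limit. CCR7, which guides lymphocytes into lymph nodes, was at 116, 73.4, 49.5, 140 and 118 CPM at 80 days and at 268, 320, 139 and 91.5 CPM at 120 days. The difference was 1.34 ± 0.29 with adjusted p = 0.148, and the CFTR-/- animals overlapped between ages. TNFRSF13C, the BAFF receptor that keeps mature B cells alive, was at 100, 71.5, 96.5, 131 and 161 CPM and then at 150, 293, 88.2 and 275 CPM, a difference of 1.28 ± 0.30 with adjusted p = 0.148. The B cell transcription factor SPIB differed by 1.27 (adjusted p = 0.202) and the activation marker CD83 by 0.97 (adjusted p = 0.217).

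Survival and apoptosis genes leaned higher as well. Of 12 genes tested 8 had an unadjusted p under 0.05 with a higher level at 120 days and none with a lower level, and the median was 0.80, or 0.33 on library totals. With cells held to at least 3 other B identity genes, 14 could be tested, with 7 higher, 0 lower and a median of 0.65. CDKN1A, the cell cycle inhibitor p21, was at 3.85, 3.77, 2.47, 10.1 and 14.1 CPM at 80 days and at 63.6, 107, 18.9 and 11.4 CPM at 120 days, a difference of 2.85 ± 0.56 with adjusted p = 0.117, and the CFTR-/- animals overlapped between ages. It was not particular to B cells, with a mean of 61.1 CPM in other barcodes against 26.1 CPM. In the other barcodes at 120 days it stood at 23.5, 177, 138 and 3.17 CPM. The death-promoting BCL2L11 (1.65, adjusted p = 0.198) and PMAIP1 (0.88, adjusted p = 0.288) belonged to the same 8. Of 19 immediate early and stress genes, which respond to tissue dissociation among other things, 7 were higher and 1 lower at unadjusted p under 0.05, with a median of 0.61, or -0.02 on library totals and 0.39 among cells with at least 3 other B identity genes.

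The lists that define the B cell did not move together with age relative to the median gene. The 18 B identity genes tested split into 9 higher and 9 lower, with a median of 0.04. Among cells with at least 3 other B identity genes they split 9 and 9 with a median of 0.10, but that limit uses this list and cannot check it. The IgM heavy chain (LOC105603287) differed by -0.24 ± 0.29 (adjusted p = 0.803), CD79A by -0.20 ± 0.29 (adjusted p = 0.847), FCMR by -0.30 ± 0.29 (adjusted p = 0.758) and MS4A1 by 0.26 ± 0.26 (adjusted p = 0.770). Antigen receptor signalling genes had a median of -0.09 over 20 genes, with 1 higher and 2 lower at unadjusted p under 0.05. Of 21 B lineage transcription factors 2 were higher and 4 lower, with a median of -0.23. On library totals the medians were -0.41 for B identity, -0.54 for antigen receptor signalling and -0.69 for the transcription factors, beside -0.47 over all genes. For 9 homing receptors the counts were 4 and 1 with a median of 0.31, and for 10 genes of class II antigen presentation 1 and 0 with a median of 0.32, and on library totals the medians were -0.19 and -0.14, beside -0.47 over all genes. Acinar genes in the same cells had a median of 0.99 over 16 genes, with 6 higher and 0 lower. When cells needed at least 3 other B identity genes, the median was 0.21, with 2 higher and 0 lower, and 1 of them, CLPS, passed. The part of acinar RNA in the age differences was not tested beyond the fit with the acinar share as a covariate, which called 5 genes.

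**Figure D4:**
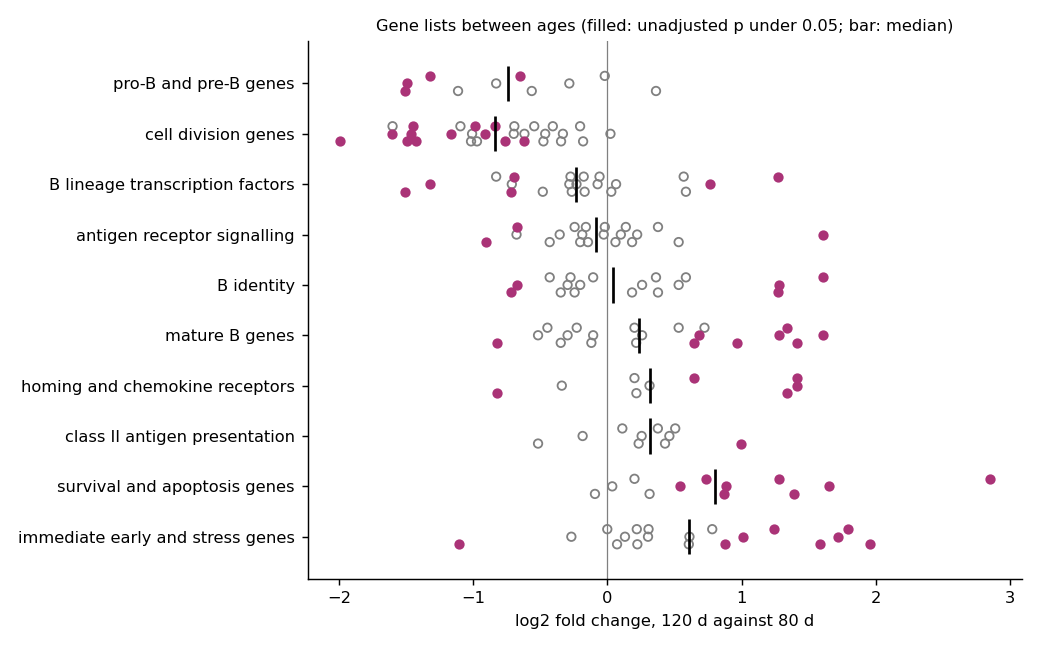
Log2 fold change between 120 and 80 days (TMM scaling) of each tested gene in the summed B cells, by gene list, with filled points for an unadjusted p under 0.05 and a bar for the median. The medians were -0.84 for cell division and 0.80 for survival genes, beside 0.00 over all genes.

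Over the pooled cells of all animals, the share of single B cells holding MYB or the light chain gene was lower at each later age. After thinning to 1500 UMIs, MYB was found in 39.5% of B cells at 80 days, 19.7% at 120 days and 3.45% at term, against 55.8%, 31.3% and 13.3% before thinning. For the light chain gene LOC101114469 the thinned shares were 56.2%, 36.2% and 3.45%. CCR7 stood at 12.0%, 22.8% and 20.7% after thinning, and FCMR at 41.4%, 32.3% and 6.90%. RAG1 was found in 3.09% and 3.15% of thinned cells at 80 and 120 days, from 10 and 4 cells, and in none at term. Before thinning its shares were 8.73%, 6.72% and 0%, lower at each later age. DNTT, the enzyme that adds bases at immunoglobulin joins, was found in 1.85%, 0.787% and 0% after thinning and in 4.51%, 1.49% and 0% before. The shares at term rest on 30 cells, of which 13 lacked 3 other B identity genes. All these shares pool cells of several animals and are a description, and 49 of the 134 cells at 120 days came from CFTR-/- replicate 5. By genotype, thinned MYB stood at 47.2% in non-CF and 31.9% in CFTR-/- cells at 80 days and at 28.6% and 12.7% at 120 days. Thinned CCR7 stood at 11.8% and 12.3% at 80 days and at 32.1% and 15.5% at 120 days.

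Some genes were found together with MYB in the same cells. Of 154 thinned cells with MYB, 87.7% held the light chain gene LOC101114469, against 28.8% of 326 without MYB, and the share was higher with MYB in 9 of 9 animals. SOX4, a factor of early B cells, was found in 50.6% against 28.2% and was higher with MYB in 7 of 9 animals. TOP2A stood at 21.4% against 9.82%, also in 7 of 9. Other precursor genes followed less clearly, since IL7R stood at 23.4% against 11.7% but was higher in 5 of 9 animals and lower in 4, and VPREB3 stood at 24.0% against 20.6%. In contrast BANK1, an adaptor of mature B cells, was found in 3.90% of cells with MYB against 18.7% without, and CCR7 in 7.79% against 19.0%. JCHAIN (12.3% against 25.2%) and MS4A1 (22.1% against 34.7%) went the same way, and each of these 4 genes was lower with MYB in 8 of the 9 animals. The per animal groups held only 4 to 34 cells with MYB, all cells of an animal share a library, and these shares are a description.

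The highest JCHAIN counts rested on very few cells. JCHAIN, the joining chain of secreted IgM and IgA, was found in 206 of the 519 B cells (39.7%), XBP1 in 36.2% and MZB1 in 58 cells, but the median JCHAIN count was 0 UMIs and 2 B cells held more than 100. In 6 of the 9 animals the top cell held 11.8% to 35.3% of the JCHAIN UMIs, and in the other 3 it held 70.6% to 83.3%. A single cell of CFTR-/- replicate 2 at 80 days held 1043 of that animal's 1252 JCHAIN UMIs (83.3%) and 4865 of its 5386 UMIs of the immunoglobulin-like gene LOC101113211 (90.3%). This cell had 14000 UMIs over 2742 genes, with 71 UMIs of MZB1 and 4 of PRDM1, genes of antibody secretion, and 16 UMIs of the IgM heavy chain. Without it the JCHAIN level of that animal was 268 rather than 1604 CPM. SDC1, the plasma cell surface marker, had no UMI in any of the 519 cells.

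The third question was whether B cells of CFTR-/- fetuses differed from those of non-CF fetuses in what they expressed. At 80 days 5 of 4301 genes passed (0.116%), 4 higher (0.093%) and 1 lower (0.0233%) in CFTR-/- cells. A further count at unadjusted p under 0.05 gave 227 genes (5.28%), and DESeq2 called 13. Among cells with at least 3 other B identity genes 6 genes were called, 5 higher and 1 lower. The calls were fragile, since none was made when non-CF replicate 3, non-CF replicate 4 or CFTR-/- replicate 1 was left out, and non-CF replicate 4 is the only heterozygous animal in the fit. The 3rd CFTR-/- fetus had 12 B cells and did not enter the fit.

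CD69, a surface protein that lymphocytes display early after activation, rose in CFTR-/- B cells. It was at 3.85, 13.2 and 9.90 CPM in non-CF and at 121 and 85.8 CPM in CFTR-/- animals, with no overlap, a difference of 3.33 ± 0.48 (adjusted p = 0.0184, edgeR). It was found in 3.70%, 7.35% and 4.71% of non-CF B cells and in 26.7% and 26.6% of CFTR-/- B cells. No barcode held more than 15 of the 84 and 67 UMIs of the CFTR-/- animals. In the other kept barcodes of these 5 animals CD69 lay between 1.03 and 9.15 CPM and overlapped between genotypes. In the 12 cells of the 3rd CFTR-/- fetus there were 11 UMIs, or 92.2 CPM, in 2 cells. At 120 days all 4 animals were high, at 100, 51.1, 56.7 and 122 CPM, and the change of the genotype difference with age was -3.06 ± 0.70 (adjusted p = 0.511). The call at 80 days was also lost without non-CF replicate 1 (adjusted p = 0.0805) and with the acinar share as covariate (adjusted p = 0.0575).

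LOC105605242, which the files list by number only, fell in CFTR-/- B cells at 80 days. It was close to specific for B cells in these libraries, at a mean of 103 CPM against 0.753 CPM in other barcodes, a ratio of 137. The non-CF animals stood at 239, 222 and 198 CPM and the CFTR-/- animals at 43.3 and 38.4 CPM, a difference of -2.44 ± 0.30 (adjusted p = 0.0067). The gene was found in 74.1%, 57.4% and 44.7% of non-CF and 23.3% and 21.3% of CFTR-/- B cells. It had no UMI in the 12 cells of the 3rd CFTR-/- fetus, which at 119294 UMIs in sum is a small sample. At 120 days the levels were 54.5 and 46.4 CPM in non-CF and 37.8 and 49.6 CPM in CFTR-/- animals, all near the lower group at 80 days. Without CFTR-/- replicate 2 the adjusted p was 0.0803.

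The other 3 genes that rose were not particular to B cells, with means over the 9 animals no higher in B cells than in other barcodes. DNAJA4, a cochaperone of HSP70, was at 7.70, 9.41 and 7.42 CPM against 127 and 106 CPM, a difference of 3.73 ± 0.61 (adjusted p = 0.0413). In the other barcodes of the same animals it moved alike, from 10.3 to 11.9 CPM in non-CF to 95.3 and 85.0 CPM in CFTR-/- animals. DLK1, a Notch-family protein of fetal mesenchyme and endocrine cells, differed by 4.95 ± 0.59 (adjusted p = 0.0067). In CFTR-/- replicate 2 it rested on few barcodes, with 180 of 186 UMIs in 1 barcode. In replicate 1 a single barcode held 92 of 208 UMIs, and the gene was found in 18 of 60 B cells (30.0%). In the non-CF animals it was found in 3.70%, 7.35% and 3.53% of B cells, and in CFTR-/- replicate 2 in 6.38%. ANXA2, a membrane-binding protein of epithelium and stroma, differed by 2.17 ± 0.34 (adjusted p = 0.037), and by 1.27 (adjusted p = 0.999) among cells with at least 3 other B identity genes.

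**Figure D5:**
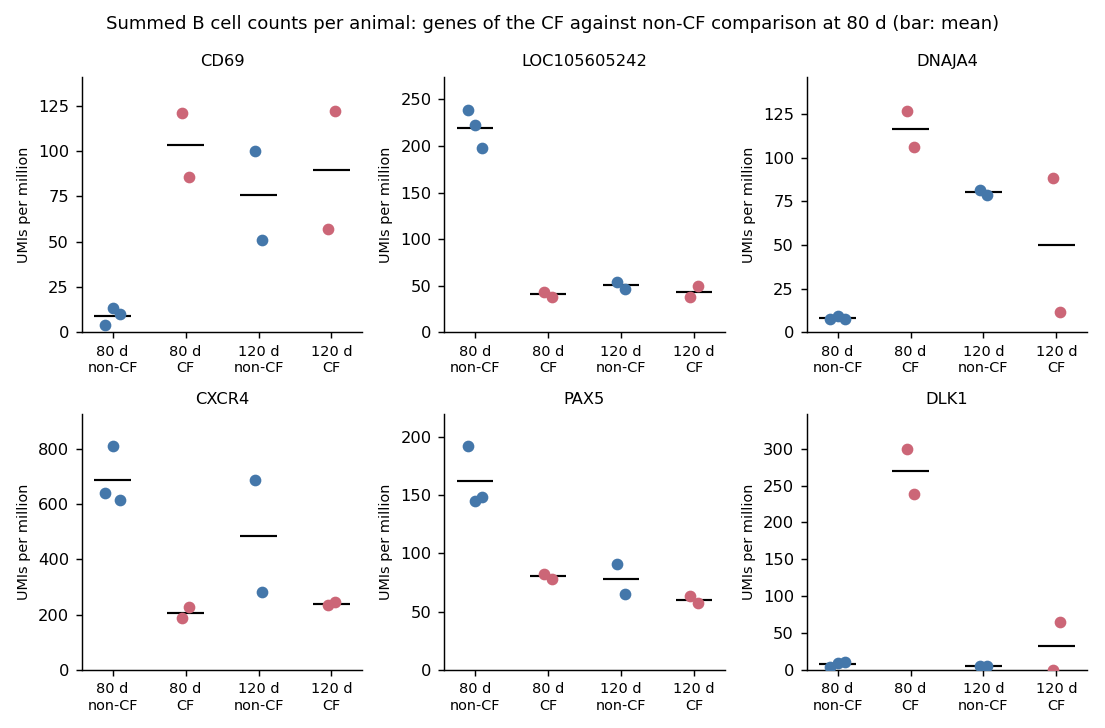
Level in CPM (UMIs per 1000000) of 6 genes in the summed B cells of each of the 9 animals fitted (points), by age and genotype (CF is CFTR-/-), with bars for group means. At 80 days CD69 lay between 3.85 and 13.2 CPM in non-CF and at 85.8 and 121 CPM in CFTR-/- animals, whereas at 120 days all 4 animals lay between 51.1 and 122 CPM.

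Stress genes leaned higher in CFTR-/- animals at 80 days, both in B cells and in the other barcodes, although in B cells 1 of the 19 passed. Of 19 immediate early and stress genes 6 were higher at unadjusted p under 0.05, against 3.02% of all genes, and none lower, 18 of 19 differences were positive, beside 48.9% of all genes, and the median was 0.68. CD69 belongs to this list and was the member that passed. In cells with at least 3 other B identity genes the counts were again 6 and 0, with a median of 0.67. The heat shock cochaperone DNAJB1 was at 713, 337 and 470 CPM against 2275 and 2187 CPM, a difference of 2.14 ± 0.62 with adjusted p = 0.378. In sum the list stood at 8884 to 11956 CPM in non-CF and 20028 to 23842 CPM in CFTR-/- B cells. In the other barcodes of the same animals it stood at 10087 to 12176 CPM and 22457 to 26105 CPM. The part of this difference in the genes called was not tested.

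Stromal genes stood higher in CFTR-/- B cells at 80 days, with most UMIs in a handful of barcodes. All 8 tested were higher at unadjusted p under 0.05, with a median of 4.73. Their sum was 44.5 to 117 CPM in non-CF and 4196 and 1162 CPM in CFTR-/- B cells, and in these 2 animals the top 3 barcodes held 94.2% and 95.1% of it. In CFTR-/- replicate 1 the excess reached beyond these, since 48 of its 60 B cells held a stromal gene and 23 held at least 3, with a median of 243 CPM per cell, against 0 or 1 cells with 3 genes and medians of 0 to 111 CPM in non-CF animals. Replicate 2 had 1 cell with 3 genes and a median of 0. The other barcodes held 3305 to 7416 CPM in non-CF and 16140 and 4246 CPM in CFTR-/- animals. Of 16 acinar genes 4 were lower and none higher, with a median of -0.81, or 6 and none with a median of -1.95 in cells with at least 3 other B identity genes.

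Genes of B cell identity and development had mostly negative differences in CFTR-/- cells at 80 days, but few had an unadjusted p under 0.05 and none passed. Of 18 B identity genes 14 had negative differences, beside 51.1% of all genes, 1 with an unadjusted p under 0.05 beside 2.26% of all genes, and the median was -0.24. With cells held to at least 3 other B identity genes, 1 was higher and 1 lower, with a median of -0.13. That limit uses genes of this list, so the value is no check of it. The lower gene, PAX5, was at 193, 145 and 148 CPM against 82.2 and 78.1 CPM, a difference of -1.02 ± 0.30 with adjusted p = 0.378. Its genotypes did not overlap. Of 10 pro-B and pre-B genes 9 had negative differences, 1 of them (CD24) at unadjusted p under 0.05, with a median of -0.44. Of 21 B lineage transcription factors 18 had negative differences with a median of -0.30, or -0.19 among cells with at least 3 other B identity genes, and 1 was lower and 1 higher at unadjusted p under 0.05. FCMR (-0.36 ± 0.37), CD79A (-0.35 ± 0.38), MS4A1 (-0.11 ± 0.35) and the IgM heavy chain LOC105603287 (-0.10 ± 0.39) each had an adjusted p of 0.999. Of 9 homing and chemokine receptors 1 was higher and 1 lower, and 6 of 9 differences were positive with a median of 0.15. The lower 1, CXCR4, the chemokine receptor that holds B cell precursors in bone marrow, was at 639, 810 and 613 CPM against 186 and 228 CPM, a difference of -1.77 ± 0.40 with adjusted p = 0.169. The genotypes did not overlap. The anti-apoptotic BCL2A1, at 19.3, 64.0 and 64.3 CPM against 123 and 229 CPM, differed by 1.69 ± 0.46 with adjusted p = 0.319, and JCHAIN by 2.60 with adjusted p = 0.203, mostly from the cell described above.

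At 120 days no gene passed (0.0%) with edgeR, 289 genes (6.72%) had an unadjusted p under 0.05, of which 119 (2.77%) were higher and 170 (3.95%) lower in CFTR-/- cells, and DESeq2 called 1. None was called among cells with at least 3 other B identity genes. CFTR-/- replicate 1 had 24 cells and replicate 5 had 49. CIITA, the master regulator of class II genes, was at 13.6 and 9.29 CPM in non-CF and at 12.6 and 99.1 CPM in CFTR-/- animals, a difference of 2.35 ± 0.74 with adjusted p = 0.693. CD55, which shields cells from complement, did not overlap, at 45.4 and 41.8 CPM against 101 and 133 CPM, with a difference of 1.42 ± 0.38 and the same adjusted p = 0.693. The 10 class II genes all had positive differences, beside 48.7% of all genes, with a median of 0.54 and 1 at unadjusted p under 0.05. In sum they stood at 3372 and 3552 CPM in the non-CF and at 3069 and 6378 CPM in the CFTR-/- animals, so the genotypes overlapped, and among cells with at least 3 other B identity genes 7 of 10 differences were positive with a median of 0.26. Of 19 immediate early and stress genes, whose sums per animal are given below, 4 were lower and none higher. Of their differences 15 of 19 were negative, beside 51.3% of all genes, with a median of -0.55. Among cells with at least 3 other B identity genes 1 was lower and none higher, with 16 of 19 negative and a median of -0.49. Genes of other cell types also differed in these cells, with 5 of 7 duct genes lower at unadjusted p under 0.05 (median -2.74), 16 of 16 acinar differences negative (median -1.17), 8 of 8 stromal positive (median 2.29) and 5 of 5 endocrine positive (median 3.42). The endocrine sum was 10872 CPM in CFTR-/- replicate 1 but 61 CPM in replicate 5, beside 145 and 255 CPM in non-CF animals. The stromal sum was 50.4 CPM in replicate 1 and 3698 CPM in replicate 5, beside 50.0 and 641 CPM. Of the 10872 and of the 3698 CPM, the top 3 barcodes held 99.5%. When cells needed at least 3 other B identity genes, the medians were 0.96 over 2 duct genes, opposite in sign, -0.59 for acinar and 6.01 for stromal genes, and their part in the other differences was not tested. Over the mean of both ages no gene passed with edgeR (0.0%), 297 genes (6.91%) had an unadjusted p under 0.05 and DESeq2 called 3. In the cells with at least 3 other B identity genes that comparison called 9 genes, among them COL1A1, COL1A2, COL3A1, DCN, LUM and SPARC of the stromal list. Among all B cells, the top 3 barcodes held 94.2% and 95.1% of the stromal UMIs in CFTR-/- replicates 1 and 2 at 80 days. At 120 days they held 50.0% in replicate 1 and 99.5% in replicate 5.

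The change of the genotype difference between the ages was tested directly. No gene passed with edgeR (0.0%) and none with DESeq2, and 241 genes (5.6%) had an unadjusted p under 0.05, 93 (2.16%) with a positive and 148 (3.44%) with a negative term. All 19 immediate early and stress genes had a negative term, beside 50.4% of all genes, 7 of them at unadjusted p under 0.05, with a median of -1.44 beside -0.01 over all genes. The list's difference turned from mostly positive at 80 days to mostly negative at 120 days. There CFTR-/- replicate 5 held 7046 CPM in sum and replicate 1 held 31886 CPM, beside 17092 and 35794 CPM in the non-CF animals. In the other barcodes replicate 5 was also the lowest, at 3834 CPM, beside 18795 CPM in replicate 1 and 12284 and 19456 CPM in the non-CF animals. The change was thus not particular to B cells, and its source was not tested. CCR7 had a term of -2.08 ± 0.58 with adjusted p = 0.65. On simulated counts with these animals and genes, 200 of which were changed, the fit recovered 91% of the genes changed 4-fold between genotypes at 80 days and 41% at 120 days, but 11% and 5% of those changed 2-fold. The changed genes were all drawn from above the median level, with a spread set by level alone. Recovery of genes at lower levels was not measured.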

How the data were processed

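Fresh pancreas was digested to single cells, run on the 10x Genomics 3′ platform and sequenced. The authors aligned reads to the sheep genome Oar_v4.0 with Cell Ranger 3.1.0 and deposited a matrix of raw UMI counts per gene and barcode for each library. The barcode and feature lists deposited beside it carry names and were used as such. Kept barcodes followed the study's limits of over 200 and under 6000 genes and under 25% mitochondrial UMIs. Its integration and clusters were not used here, and doublets were not called.

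B cells were selected by CD79B and the excluding genes. The members and gene lists were chosen with earlier results of these data known. Genes without a symbol were named from the study's marker tables, or left as numbers, and a RefSeq table of another sheep assembly was used for names only.

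UMIs of B cells were summed per animal, and animals with at least 20 cells were fitted with edgeR 4.0.16 (R 4.3.3, filterByExpr, TMM, glmQLFit) over 4 groups and 9 animals with 5 residual degrees of freedom. Genes were called at a Benjamini-Hochberg adjusted p of at most 0.05. Effects over all ages are the mean of 80 and 120 days, because no term animal had 20 B cells. The planned gene comparisons at term and of term with 120 days could not be fitted for the same reason. DESeq2 1.42.0 was the other tool. The scripts were tested on simulated data. Shares were compared by exact permutation tests (scipy 1.17.1). Differences between ages and over all ages are on log2 of the percent plus 0.1, and genotype differences at a single age are log2 ratios of mean shares. Thinning drew 1500 UMIs per barcode, and barcodes with fewer were left out. Animals are the replicates, but clones, twins and littermates share origin, so the spread may understate that between unrelated animals. UMI intervals cover counting error only, and zeros were read with a floor of 3 counts. Named genes were the B identity genes, up to 4 genes of the smallest p per list and comparison, and the called genes, with at most 2 identifiers lacking a symbol each way. RAG1, CFTR, DNTT, SDC1, TOP2A, MZB1, BANK1, DNAJA4, DLK1 and ANXA2 and those named from single cells fall outside that rule and were chosen after their values were seen. The same holds for the comparison of term with 80 days, the ratios to T cells and macrophages, the limit of 3 other B identity genes and the scaling by library totals. Results on some listed genes are not reported here.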

Additional observations from a re-analysis of the deposited data

Results flagged for a closer look

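In CFTR-/- animals at 120 days, replicate 5 held 1.26% B cells, far above the other 5 animals of the group, with a gap to its nearest neighbour of 0.739 of the group's range beside a critical value of 0.625. After thinning to 1500 UMIs its share was 1.25% with a gap of 0.840. In non-CF animals at term, replicate 2 held 4.84% T cells with a gap of 0.877, beside a critical value of 0.829. Of 12 combinations of measure and group tested 3 stood out this way, and chance flags about 1 in 20 of independent tests. These were not independent, since the B cell shares before and after thinning rest on the same animals and cells.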

How the results depend on the processing

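The share tests kept their side of the threshold under all alternatives tried but for the step from 80 to 120 days, which ranged from -2.73 to -1.84 over animals left out. For genotype at 80 days and at term this was fixed in advance, since the exact p could not go below 0.0571 with all animals. The genotype difference at 80 days, near 0, turned to -0.29 at 1500 UMIs, -0.14 without B cells above the median size and -0.26 without the HZ animals, and ran from -0.42 to 0.59 over animals left out. That at 120 days ran from -2.69 to -0.13.

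Counts of genes called moved widely. For CFTR-/- against non-CF at 80 days they were 152 without the low-count filter, 1 with animals of at least 10 B cells, 2 without large cells, 11 with sex as covariate, 30 without CFTR-/- 120 day replicates 5 and 6, 0 without the HZ animals, 13 with DESeq2 and 13 on library totals, and 0 to 30 over animals left out. At 120 days they were 69 without the filter, 5 without replicates 5 and 6, 1 with DESeq2, and 0 to 5 over animals left out. Over both ages they were 107 without the filter, 11 with at least 2 CD79B UMIs, 1 without large cells, 1 with the acinar covariate, 2 with sex, 5 without replicates 5 and 6, 9 with at least 3 other B genes, 3 with DESeq2, 1 on library totals and 0 to 33 over animals left out. For 120 against 80 days they were 150, 3 with at least 10 cells, 2 with 2 CD79B UMIs, 21 without large cells, 5 with the acinar covariate, 25 with sex, 61 without replicates 5 and 6, 2 without HZ, 2 with at least 3 other B genes, 43 with DESeq2, 22 on library totals and 1 to 61 over animals left out, with 61 without CFTR-/- replicate 5 and 6 without non-CF replicate 3. For the change of the genotype difference with age they were 89, 6 with the acinar covariate, 1 with sex, 2 without replicates 5 and 6, and 0 to 5. The causes were not tested.

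Replicate numbers did not pair the animals, since deviations of same-numbered animals correlated at -0.16 to 0.06 over 5 pairs. With the replicate number as a block, which leaves 1 residual degree of freedom, the counts were 39, 3, 6, 64 and 13 in the order above. LOC101111795 was called in 21 of 21 alternatives, DLK1 in 16 of 21, CD69 and LOC105605242 in 15 of 22 each, DNAJA4 in 12 of 22 and ANXA2 in 8 of 22. The gene tests rest on 24 to 94 B cells per animal.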
